A study of Homo sapiens with 2 samples.

Results

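The genes followed here code for adaptors, linkers and kinases of focal adhesions and were measured in MDA-MB-231 cells: TGFB1I1, PXN, ZYX, TES, TLN1, VCL, PTK2, ILK, PARVA and LIMS1. They are a named list that was chosen by function with the FPKM ratios of these libraries in view, TGFB1I1 having one of the most negative. All 10 were listed in the deposited table, with 46 transcripts, out of 12918 genes and 39605 transcripts in all. They lie on chromosomes 16, 12, 7, 7, 9, 10, 8, 11, 11 and 2, in that order. Their differences are given as a description, with no test.

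MDA-MB-231 is a widely used line from a human breast cancer of the triple-negative type, and both libraries came from it 48 h after transfection. The first library was from cells that received a Smart Silencer, a reagent that pools siRNAs with antisense oligonucleotides, against the long noncoding RNA THAP7-AS1. The other was from cells that received the control Si-NC. The comparison asks how messenger RNA levels differ between cells given the silencer against that RNA and control cells. The table has a column named for si-NC, called the control here, and a column headed si-v. The meaning of v is not stated, and it was assigned to the cells given the silencer by elimination, so every direction below depends on that assignment. The level of THAP7-AS1 can check neither the label nor whether that RNA was lowered, as 0 of its 3 annotated transcripts were listed. With 1 library per group, no difference has a replicate check, and all statements describe these 2 libraries.

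Values are FPKM, which are fragments scaled by transcript length and by the mapped total of the library, summed over the listed transcripts of a gene. The log2 ratio is log2((si-v + 1)/(control + 1)), so a negative value means a lower level in the si-v library. The depth, estimated from low values, was about 7828000 fragments over listed transcripts for the control and 8315000 for the si-v library. Of the 5 markers expected to be high in the line, VIM, a mesenchymal filament gene, stood at 344 and 373 FPKM and ANXA1 at 265 and 273, while FOSL1 at 739 and 463 (log2 ratio -0.67), CAV1 at 118 and 83.7 (-0.49) and CD44 at 152 and 114 (-0.41) were lower in the si-v library. The estrogen receptor gene ESR1 was listed at 0 in both and the epithelial cadherin gene CDH1 stood at 0.0845 and 0.122. KRT19, put on the list of genes expected to be low, was high at 243.5 and 269, and the receptor gene ERBB2 stood at 4.65 and 17.4. Of 6 markers of other cell types, 4 had no listed transcript; the smooth muscle actin gene ACTA2 stood at 2.11 and 0.825 and the albumin gene ALB at 17.0 and 17.7. In bulk RNA, fewer cells with a transcript and less of it per cell cannot be told apart.

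Focal adhesions are the sites where integrins that hold the extracellular matrix are tied to actin filaments inside the cell. Talin binds the integrin tail and actin, vinculin strengthens that link, and the complex of ILK, PINCH and parvin forms another bridge. Paxillin and its relative Hic-5 are scaffolds with LIM domains on which focal adhesion kinase and its partners gather, and zyxin and testin are LIM proteins of tension-bearing adhesions and stress fibres. In breast cancer cells these structures are studied for their part in spreading, migration and invasion.

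Several of these genes have transcripts that differ by single exons, so the sequences that tell their transcripts apart come first. All are from GENCODE release 29 transcripts, 5′ to 3′, and all printed bases are coding in the transcript named. The start of the long TGFB1I1 form is shown because this form led the difference of that gene; capitals mark the 13 coding bases that no other listed TGFB1I1 transcript holds.
TGFB1I1-203: ATGGAGGACCTGGatgccctgctctctg
For ZYX, the main control form ZYX-202 skips an exon of 93 bases within the coding region of ZYX-201; capitals mark the first 15 bases after the shared upstream exon, which are those of the 93-base exon in ZYX-201 and those of the exon after it in ZYX-202.
ZYX-201: ccgcccccaccacagCCCAGGGAGAAGGTG
ZYX-202: ccgcccccaccacagGTGTCATCTGGATAT
For VCL, the exon of 204 bases that makes metavinculin, the muscle form, is given in capitals, because it separates the listed forms.
VCL-201: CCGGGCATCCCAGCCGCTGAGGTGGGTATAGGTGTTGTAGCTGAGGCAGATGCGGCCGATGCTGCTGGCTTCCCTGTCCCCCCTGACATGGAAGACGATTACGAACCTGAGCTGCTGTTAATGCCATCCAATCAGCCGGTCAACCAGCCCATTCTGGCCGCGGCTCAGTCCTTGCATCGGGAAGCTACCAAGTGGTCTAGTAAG
The junction of VCL-202 skips that exon, and its capitals mark the first 15 bases of the exon that follows.
VCL-202: aaatggtccagcaagGGCAATGACATCATT
The last, in capitals, is the first 120 of the 309 bases of an exon found in 1 listed PXN transcript, the one with the highest FPKM of that gene.
PXN-220: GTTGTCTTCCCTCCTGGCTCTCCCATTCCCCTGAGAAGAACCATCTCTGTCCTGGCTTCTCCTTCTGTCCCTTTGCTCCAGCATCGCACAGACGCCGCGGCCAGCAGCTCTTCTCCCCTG

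TGFB1I1 and LIMS1 were lower in the si-v library by more than 2-fold, and the other 8 genes lay within 1.5-fold. Over all 11046 genes that reached 1 FPKM in at least 1 library, 2.49% were lower by 2-fold or more and 2.37% were higher. At 1.5-fold, 8.91% of all genes were lower and 9.82% higher, against the same 2 members lower and 0 higher. As the members were listed with these ratios in view, nothing is read from their share. Their median log2 ratio was 0.04, beside 0.00373 over all genes, with 6 members above 0 and 4 below.

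In the control the order of levels, highest first, was TLN1, ZYX, VCL, ILK, PTK2, TGFB1I1, TES, PXN, PARVA and LIMS1. FPKM is scaled by transcript length, so levels can be set beside each other, but short incomplete transcripts add much to the sums of PXN and LIMS1 (described with those genes), and their places depend on them. The place of PTK2 likewise depends on PTK2-203, which is not a full-length form and held 57.7% of its FPKM in the control. Talin was also highest in the si-v library, while TGFB1I1 moved from place 6 to place 10. ZYX, VCL and ILK were neighbours within 62.4 to 61.2 FPKM in the control, and TGFB1I1 and TES stood at 32.9 and 32.6, gaps too small to order without replicates.

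**Figure D1:**
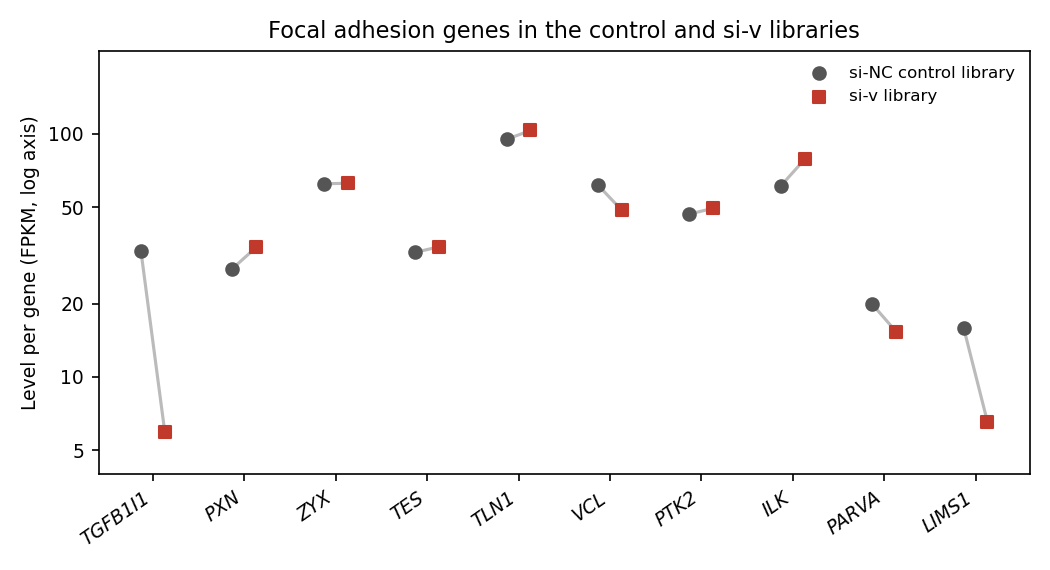
Level of each of the 10 genes in the si-NC control library (grey circles) and the si-v library (red squares), in FPKM summed over listed transcripts on a log axis; each point is 1 library. TGFB1I1 goes from 32.9 to 5.95 and LIMS1 from 15.9 to 6.54, while the other 8 genes stay within 1.5-fold.

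TGFB1I1 encodes Hic-5, a paxillin relative that also acts as a nuclear receptor coactivator. It stood at 32.9 FPKM in control cells and 5.95 in si-v cells, 5.52 times lower, with a log2 ratio of -2.28. The values rest on about 668 and 130 fragments, which put the log2 ratio without pseudocount between -2.76 and -2.20 (exact 95% interval, counting error only). Among all 11046 genes its ratio was number 7 from the lowest. Under 9 other ways of computing it the ratio ran from -2.50 to -1.79, past 2-fold in each. Those that change only the gene filter cannot move the ratio and repeat the reported value.

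Both main TGFB1I1 transcripts were lower. TGFB1I1-203, the form of 461 codons with its own coding start printed above, stood at 21.3 FPKM in control cells and 3.13 in si-v cells (log2 ratio -2.43). TGFB1I1-214, of 444 codons, stood at 11.2 and 2.08 (-1.98), and its share of the gene was 34.0% and 34.9%. The third, TGFB1I1-201, encodes the same 444 codons and stood at 0.379 and 0.747 FPKM, on about 7 and 16 fragments. The lower values are thus listed for 2 transcripts with different 5′ ends. TGFB1I1-214 has only 15 bases and 0 junctions that no other listed TGFB1I1 transcript holds. How reads on the shared exons were divided among the forms was not tested. The table lists 3 of 17 annotated TGFB1I1 transcripts, and reads on the others were not analysed here.

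The 3 genes of at least 5 FPKM with ratios nearest to that of TGFB1I1, among 7944 searched, were MRPL10, a mitochondrial ribosomal protein gene, at 18.2 and 3.02 FPKM (-2.26), the membrane protein gene EMP1 at 5.74 and 0.437 (-2.23), and the envoplakin gene EVPL at 17.1 and 2.88 (-2.22). With pseudocounts of 0.1 and 5 the ratio of EMP1 was -3.44 and -0.98, so its place among these genes depends on the pseudocount. Likeness here is the distance between log2 ratios of 2 libraries and carries no more than that.

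PXN encodes paxillin, the scaffold that binds focal adhesion kinase and vinculin. The gene stood at 27.9 FPKM in control cells and 34.2 in si-v cells (0.28). The ratio was 0.36 on fragments per gene and 0.08 with the trend of GC content and length removed, and it turned to -0.17 for the most abundant transcript. That transcript is PXN-220, annotated as incomplete at both ends, which stood at 17.2 and 15.1 FPKM. Its 621 bases make it large in FPKM: it took 61.6% and 44.3% of the gene's FPKM but about 26.2% and 18.0% of its fragments.

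The other forms of PXN were unequal. The 3 that begin at other exons than the alpha form (PXN-207, PXN-210 and PXN-219) were higher in the si-v library, and so was PXN-202. PXN-204, the alpha form of 557 codons, stood at 3.45 and 2.48 FPKM (-0.35). PXN-207, whose coding region begins at another exon, stood at 2.35 and 5.30 (0.91), on about 106 and 259 fragments. PXN-210, which shares that start, and PXN-219, both annotated with an incomplete 3′ end, stood at 3.54 and 7.09 FPKM and at 0.311 and 3.32. The values of PXN-219 rest on about 2 and 23 fragments. PXN-201, the beta form of 591 codons, was low at 0.932 and 0.147, with 0 bases and 0 junctions that other listed PXN transcripts lack. PXN-202, the gamma form of 605 codons, was low but higher in the si-v library, at 0.153 and 0.701 on about 6 and 32 fragments. The exon of 102 bases that adds the beta insert was held by transcripts with 73.3% of the gene's FPKM in control cells and 60.2% in si-v cells, a share that PXN-220 dominates.

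ZYX encodes zyxin, which recruits actin assembly factors of the VASP family. Summed over transcripts it was level, at 62.4 FPKM in control cells and 62.7 in si-v cells (log2 ratio 0.01). Its transcripts were not. ZYX-202 stood at 45.8 FPKM in control cells and 3.76 in si-v cells (-3.30), on about 1029 and 92 fragments. ZYX-203 stood at 0.0208 and 46.6 FPKM, on about 0 and 1175 fragments. So 1 form held 73.3% of the gene in the control and another held 74.3% in the si-v library.

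The printed junctions are those of ZYX-201 and ZYX-202 and differ by an internal exon. ZYX-202 skips the 93-base exon, is annotated as incomplete at its 5′ end, and has 0 bases and 1 junction that no other listed ZYX transcript holds. ZYX-203 keeps the exon and has 185 bases and 1 junction of its own, none of those bases coding; its 415 codons begin later than the 572 of ZYX-201. Transcripts with the 93-base exon held 25.9% of the gene's FPKM in control cells and 92.8% in si-v cells. ZYX-201, which keeps the exon and the full coding region, stood at 13.8 and 10.6 FPKM (-0.35). How reads on the shared exons were divided among these forms by the authors' software was not tested.

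**Figure D2:**
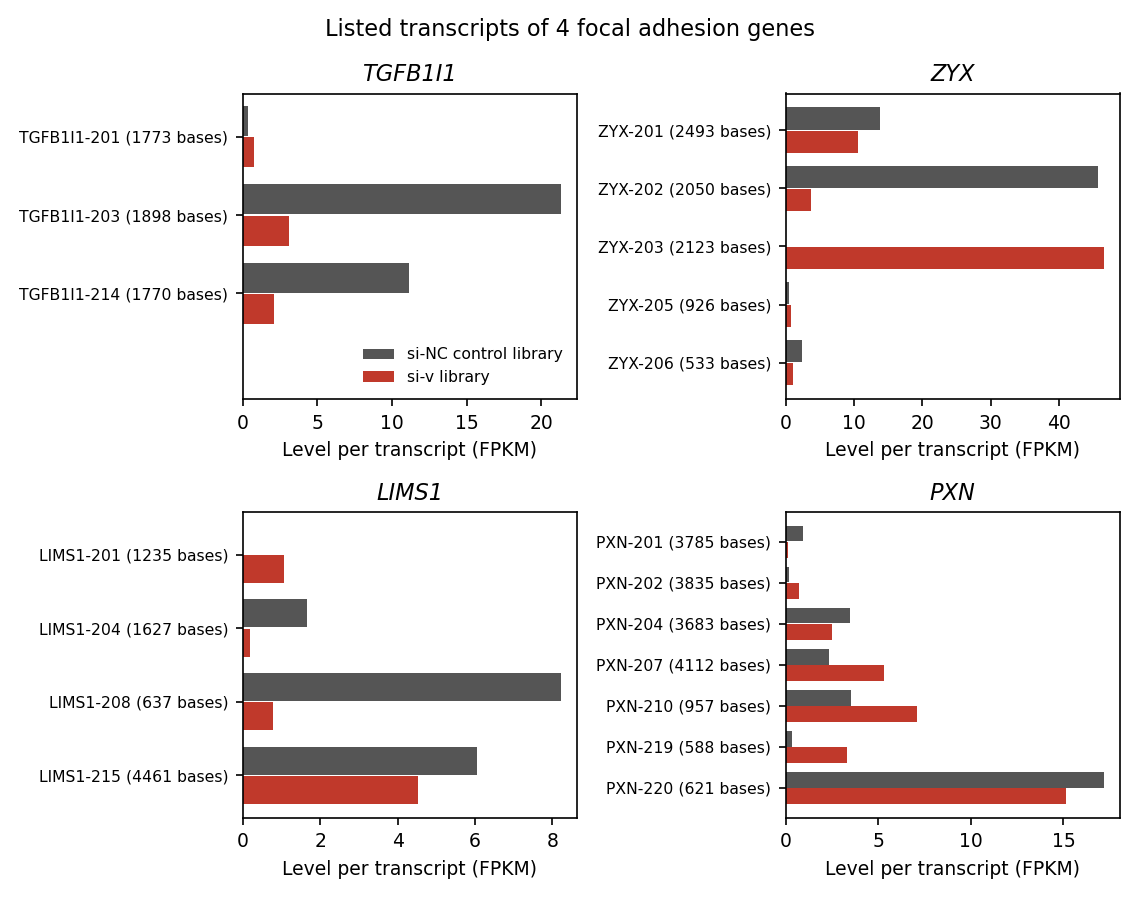
Level in FPKM of each listed transcript of TGFB1I1, ZYX, LIMS1 and PXN in the control (grey) and si-v (red) library, 1 library per bar, with transcript lengths in bases. In ZYX the bar of ZYX-202 is long in the control (45.8) and that of ZYX-203 in the si-v library (46.6), whereas both main TGFB1I1 transcripts are shorter in the si-v library.

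To set the ZYX exchange beside other genes, the share shift was computed: the summed absolute differences in transcript share multiplied by 0.5, in percentage points, where 0 means equal shares and 100 a complete exchange. This measure was chosen after the ZYX values were seen. It was 74.7 points for ZYX and 47.3 for LIMS1, and from 25.3 for PXN down to 0.15 for VCL in the other members with at least 2 listed transcripts. On shares of fragments it was 73.8 for ZYX, 19.2 for LIMS1 and 3.03 for TES, which had 7.18 on FPKM. Over all 8447 genes with at least 2 listed transcripts, 11.8% had a shift of 50 points or more, and 9.05% of the 6472 such genes at 5 FPKM or more did, with a median of 12.7 points. Of the 8 members, ZYX passed the level of 50 points, and a shift past that level is thus not particular to ZYX in these libraries. The share of genes that reach the 74.7 points of ZYX was not counted.

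**Figure D3:**
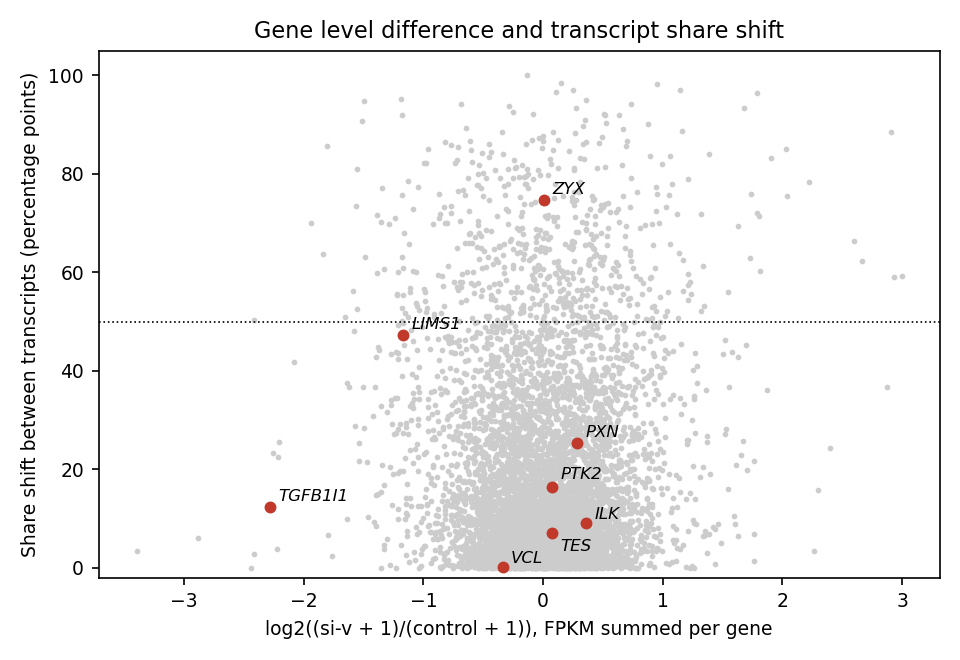
Share shift between transcripts (percentage points) against the log2 ratio of the gene for genes of at least 5 FPKM with 2 or more listed transcripts (grey) and the 8 such focal adhesion genes (red). ZYX lies at 74.7 points with a gene ratio of 0.01, and TGFB1I1 at 12.3 points with -2.28.

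TES encodes testin, a LIM protein that binds zyxin. It stood at 32.6 FPKM in control cells and 34.3 in si-v cells (0.07). TES-201, of 421 codons, stood at 19.8 and 18.7 FPKM and TES-202, of 412 codons, at 11.6 and 11.9. The counting interval of each includes 0 (-0.24 to 0.08 and -0.17 to 0.25). TES-204, a fragment of 577 bases, stood at 0.803 and 2.80 on about 5 and 19 fragments.

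TLN1 encodes talin 1, the protein that activates integrins and links them to actin. With 95.0 FPKM in control cells and 103 in si-v cells it was the most abundant member in both (log2 ratio 0.12). It also had the best depth, about 9197 and 10839 fragments, all on 1 listed transcript of 8823 bases. The counting interval ran from 0.08 to 0.16, which does not include 0 but holds counting error only. The TLN1 ratio was 0.054 when mitochondrial genes were left out of the scaling and 0.045 after correction for GC content and length. Both values lie below that interval, so the size of this small difference depends on the processing. On the opposite strand TLN1 overlaps the gene of CREB3, at 11.8 and 19.4 FPKM, and ILK, described below, overlaps that of TAF10, at 21.1 and 24.4; the part of their reads in these values was not tested.

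VCL encodes vinculin, which binds talin and actin under tension. It stood at 61.6 FPKM in control cells and 48.5 in si-v cells, a log2 ratio of -0.34 with a counting interval of -0.41 to -0.28. The ratio was -0.25 with the trend of GC content and length removed, outside that interval. Leaving mitochondrial genes out of the scaling gave -0.40. All of the gene in control cells and 99.9% in si-v cells were on VCL-202, the vinculin form. VCL-201, the metavinculin form with the printed exon of 204 bases, was at 0 in the control and at 0.0726 FPKM in the si-v library, about 5 fragments. On the opposite strand VCL overlaps the gene of AP3M1, which was itself lower, at 15.5 and 6.15 FPKM (-1.21); the strand setting of the counting is not given in the sources used here, and its part in the VCL value was not tested.

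PTK2 encodes focal adhesion kinase, the tyrosine kinase that is switched on when integrins bind matrix. The gene stood at 46.8 FPKM in control cells and 49.5 in si-v cells (0.08). Its most abundant transcript was not a full-length form: PTK2-203, of 362 codons, stood at 27.0 and 29.2 FPKM, 57.7% and 59.0% of the FPKM of the gene and about 40.4% and 43.9% of its fragments. Its coding region matches bases 2071 to 3156 of the 3156 coding bases of PTK2-228, the C-terminal part without the kinase domain. A C-terminal form of this kind, known as FRNK, is described as an antagonist of the kinase.

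The 5 PTK2 transcripts with at least 3000 coding bases summed to 13.3 FPKM in control cells and 13.5 in si-v cells (0.01). Single full-length forms were unequal under that level sum. PTK2-201 stood at 1.66 and 6.07 FPKM, on about 80 and 319 fragments, while PTK2-207 stood at 5.43 and 3.22 and PTK2-240 at 1.56 and 0.0134. PTK2-228 was listed at 0 in control cells and at 0.583 in si-v cells. The table lists 12 of 57 annotated PTK2 transcripts, and the gene sum had a counting interval of -0.11 to 0.10 on fragments.

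ILK encodes integrin-linked kinase, a pseudokinase that is the core of the complex with PINCH and parvin. It was the member with the highest ratio, at 61.2 FPKM in control cells and 78.7 in si-v cells, 1.29 times as high (0.36). The counting interval on about 1155 and 1599 fragments was 0.24 to 0.46. With the trend of GC content and length removed the ratio was 0.236, just below the 0.243 at which that interval starts. Of 6 listed ILK transcripts annotated as complete, ILK-201, ILK-202 and ILK-203 encode 452 codons each. Of these ILK-203 stood at 41.5 and 60.5 FPKM (0.53), ILK-201 at 8.58 and 9.71 and ILK-202 at 2.89 and 2.06. ILK-203 and ILK-201 each have 0 bases and 0 junctions that the other listed ILK transcripts lack. Their single values depend on how shared reads were divided, which was not tested. The other complete forms were ILK-215, of 483 codons, at 4.78 and 3.85 FPKM, ILK-212, of 318 codons, at 1.96 and 1.04, and ILK-210, of 391 codons, at 0.981 and 0.943.

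PARVA encodes alpha-parvin, which joins ILK to actin. Its single listed transcript stood at 19.9 FPKM in control cells and 15.4 in si-v cells (-0.35). The counting interval was -0.51 to -0.24, on about 974 and 815 fragments.

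LIMS1 encodes PINCH1, the LIM protein that completes the complex with ILK and parvin. As a sum over transcripts it stood at 15.9 FPKM in control cells and 6.54 in si-v cells (log2 ratio -1.17). Most of that difference sat in LIMS1-208, a transcript of 637 bases annotated with an incomplete 3′ end, at 8.22 and 0.783 FPKM on about 57 and 6 fragments. LIMS1-208 has 0 bases and 0 junctions that the other listed LIMS1 transcripts lack. LIMS1-215, of 4461 bases, held 77.3% and 90.6% of the gene's fragments and stood at 6.05 and 4.52 FPKM (-0.35).

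The size of the LIMS1 difference therefore depends on how the gene is summed. On fragments per gene, where each transcript counts by its reads and not by its level per length, the log2 ratio was -0.58, and for the most abundant transcript it was -0.35. Both are below 0, the first just short of 1.5-fold and the second well within it. The gene rests on about 383 and 265 fragments, which without pseudocount give -0.65, past 1.5-fold, with a counting interval of -0.88 to -0.42 that spans that level. LIMS4, a close relative of LIMS1, stood at 1.42 and 1.32 FPKM, and could have shared reads with it. In the same complex the ratios were thus 0.36 for ILK, -0.35 for PARVA and -1.17 for LIMS1, or -0.58 on fragments.

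**Figure D4:**
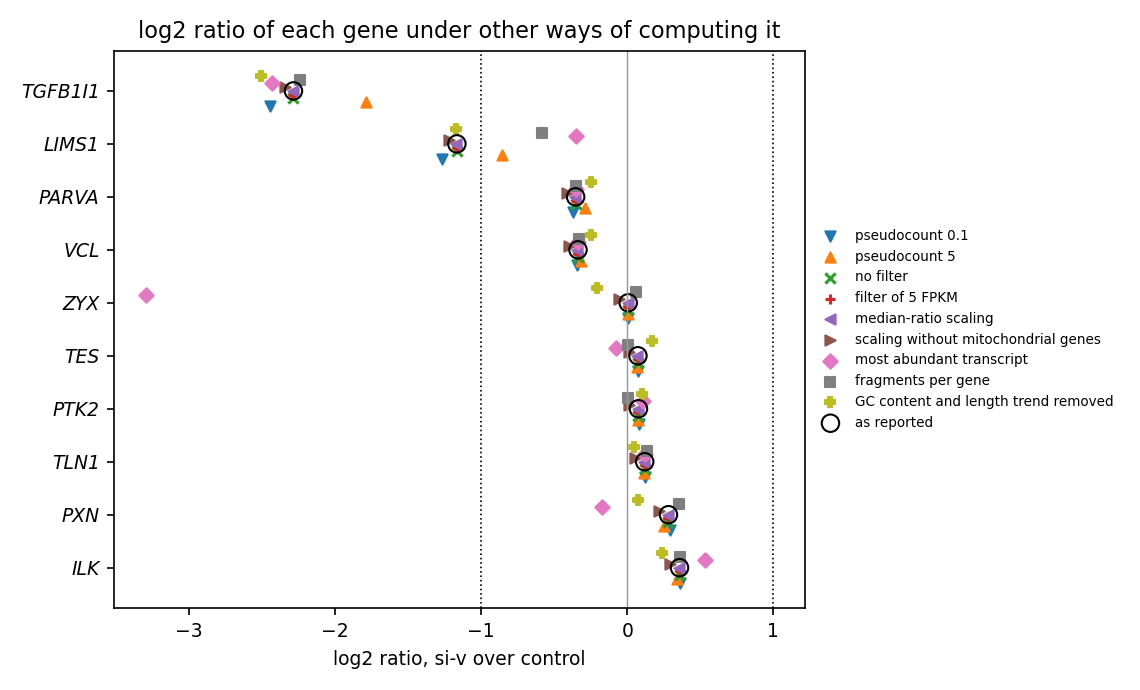
log2 ratio of each gene, si-v over control, as reported (open circles) and under 9 other ways of computing it (coloured symbols); dotted lines mark 2-fold. TGFB1I1 stays between -2.50 and -1.79, LIMS1 spreads from -1.27 to -0.35, and ZYX leaves 0 when it is read from its most abundant transcript (-3.30). The settings that change only the gene filter cannot move these ratios and repeat the reported values.

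**Figure D5:**
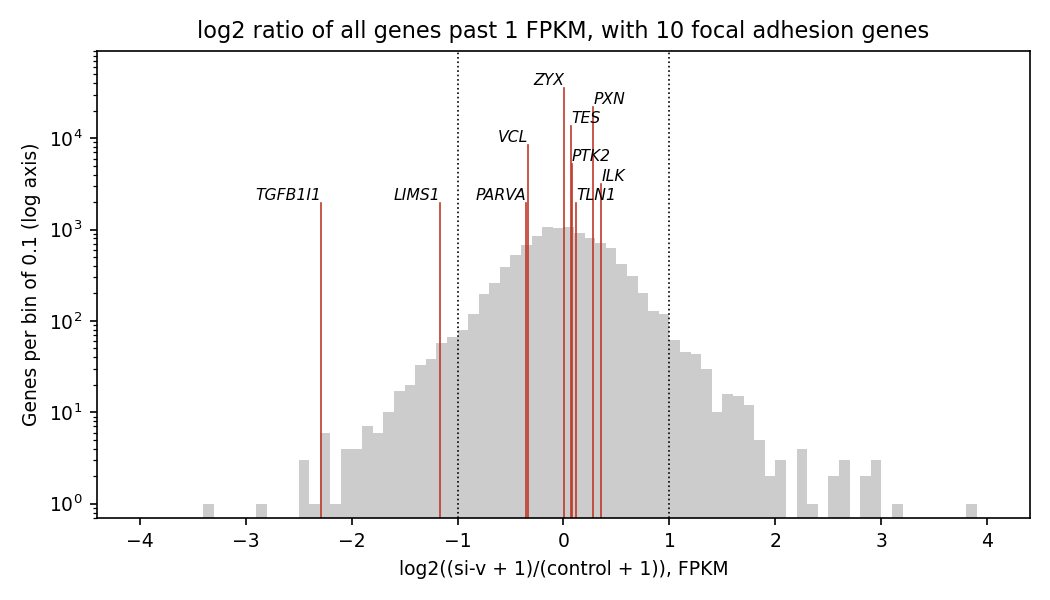
Number of genes per bin of log2 ratio (log axis) for the 11046 genes past 1 FPKM, with the 10 focal adhesion genes as red lines and 2-fold as dotted lines. On summed FPKM, TGFB1I1 lies in the far left tail at -2.28, LIMS1 at -1.17, and the other 8 between -0.35 and 0.36.

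Other adaptors and LIM proteins of focal adhesions were taken as a list of 26 genes, of which 21 passed 1 FPKM. Of these, 4 were higher and 2 lower by 1.5-fold or more, beside 9.82% and 8.91% of all genes, and the list median was -0.12. FHL2, a LIM-only cofactor, stood at 15.5 FPKM in control cells and 33.1 in si-v cells (1.05). AJUBA, a zyxin relative, stood at 12.5 and 24.3 (0.91), and TRIP6, another zyxin relative, at 20.9 and 34.2 (0.68). At the other end were PDLIM7, a LIM protein of actin filaments, at 46.8 and 16.9 (-1.42), RSU1, which binds PINCH1, at 30.1 and 17.6 (-0.75), and FERMT2, the integrin activator kindlin 2, at 29.6 and 20.3 (-0.52). Several of these values depend on how the gene is summed. From the most abundant transcript AJUBA was at 2.79, FHL2 at 1.96 and FERMT2 at -1.63. On fragments AJUBA was at 0.63, FERMT2 passed 1.5-fold at -0.64, and FHL2 fell below 2-fold at 0.74, as it did in 3 further settings. TRIP6 fell below 1.5-fold, to 0.47, after correction for GC content and length. Relatives of the members, named after their values were seen, were LPXN (leupaxin) at 7.42 and 5.20 FPKM, TLN2 at 7.98 and 10.1, and LIMS2 at 5.29 and 3.65. These too depend on the summing. On fragments without pseudocount TLN2 was at -0.09, with a counting interval of -0.22 to 0.04. By the same measure LPXN was at -0.49 and LIMS2 at -0.87, the latter on about 116 and 69 fragments.

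Actin linkers and adhesion-associated contractile genes were taken as a list of 21, of which 20 passed the filter. In all, 3 were higher and 2 lower by 1.5-fold or more, beside 9.82% and 8.91% of all genes, with a median of 0.20 that went to -0.01 for the most abundant transcript. NEXN, the actin-binding protein nexilin, stood at 37.3 FPKM in control cells and 88.7 in si-v cells (1.23). The zyxin partners VASP and ENAH stood at 25.2 and 42.1 (0.72) and at 14.3 and 22.4 (0.61). Both fell below 1.5-fold in some settings, VASP to 0.56 after correction for GC content and length and ENAH to 0.50 with a pseudocount of 5, and NEXN fell below 2-fold, to 0.92, in its most abundant transcript. Lower were the myosin light chain gene MYL12A, at 261 and 161 (-0.70), and the profilin gene PFN1, at 926 and 578 (-0.68), with the alpha-actinin gene ACTN4 at 275 and 222 (-0.31). ACTB, a reference gene, stood at 96.1 and 93.9 FPKM (-0.03). Its ratio was -0.28 in its most abundant transcript, -0.18 on fragments per gene and -0.19 after correction for GC content and length. GAPDH stood at 313 and 219 (-0.51, with -0.65 in its most abundant transcript).

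For signalling through FAK, SRC and paxillin, 32 of the 37 genes on the list passed the filter, with 2 higher and 3 lower by 1.5-fold or more, beside 9.82% and 8.91% of all genes, and a median of -0.16. GRB2, the SH2 adaptor that binds phosphorylated FAK, stood at 16.9 FPKM in control cells and 33.2 in si-v cells (0.93). RAC1, the GTPase of membrane ruffles, stood at 113 and 164 (0.53) and GIT1, a paxillin-binding scaffold, at 16.4 and 22.7 (0.44, with -1.28 when read from its top transcript). The lowest were the pseudokinase gene PEAK1 at 5.70 and 1.71 (-1.30), the adaptor gene CRK at 21.4 and 11.2 (-0.88) and ASAP1, an Arf GTPase regulator, at 71.1 and 43.2 (-0.71). From the most abundant transcript GRB2 was at 1.79, CRK at -1.73 and ASAP1 at -4.99, and on fragments ASAP1 fell just short of 1.5-fold at -0.58. PEAK1 was at -1.89 on fragments and at -0.67 with a pseudocount of 5. NEDD9, a FAK-binding scaffold below the level set for naming, had the highest ratio of the list, at 0.200 and 2.11 FPKM (1.37), and was named after its values were seen. In each of these 3 lists, genes on either side of 0 were found, and the shares past 1.5-fold are counts over few genes.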

How the data were processed

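RNA was measured in 1 library of THAP7-AS1 silencer cells and 1 of si-NC cells. The authors' deposited table gives FPKM per transcript; its header names no unit, so FPKM is read from the values. Processing used cutadapt, HISAT2 2.0.5 and StringTie on hg19, per the submitters' processing notes; for roles, annotation release, strand and filters the entry is: not given in the sources used here. Transcripts were matched without version to GENCODE release 29, another build, used for names, lengths, structures and sequences, with no coordinates: 99.5% matched, and 45 of the 46 member transcripts had the same version. FPKM were summed per gene and genes kept at 1 FPKM in either library. No p-value was computed. Among genes with a single listed transcript, the product of low values and length had a peak at 91.2 (control) and 84.1 (si-v), taken as 1 fragment; 69.7% of 66 and 64.9% of 57 values near the peaks lay within 5%, so fragments are approximate. The peak was looked for only within a preset range of products, so some peak was sure to be found there. Intervals are exact Clopper-Pearson at 95% on fragments, for counting error; how reads were divided among transcripts is not in them. The 2-fold calls per gene and the estimate of 1 fragment were tested on simulated data, with fragments drawn independently for each transcript. The division of shared reads, the share shift, the intervals and the GC content and length correction were not tested in that way. Members and lists were chosen with earlier results of these data known. The naming rule took all members and, per list, the 3 highest and 3 lowest ratios at 5 FPKM or more, the 3 genes nearest TGFB1I1, ACTB and GAPDH. Alternatives were other pseudocounts, filters and scalings, the most abundant transcript, fragments per gene, and removal of the GC content and length trend. Analysis used Python 3.11.15, pandas 2.3.3 and scipy 1.17.1.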

Additional observations from a re-analysis of the deposited data

How the results depend on the processing

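No paired analysis was possible because each group has 1 library and the labels carry no replicate numbers. The count of members lower by 2-fold or more went from 2 to 1 with a pseudocount of 5, and the counts at 2-fold and at 1.5-fold each went to 1 on fragments per gene, where LIMS1 fell out and TGFB1I1 was left. With the most abundant transcript, 6 adaptors were lower by 1.5-fold or more (5 on fragments per gene), 5 actin linkers were higher, and 5 signalling genes were higher and 5 lower. Scaling without mitochondrial genes gave 5 lower signalling genes, and a pseudocount of 5 or a filter of 5 FPKM left 1 higher. The other 117 counts and medians of the members and lists stayed within 1.5 times the reported count or within the spread of the list, but medians near 0 changed sign: that of the members, 0.04, was -0.26 with the most abundant transcript, -0.08 without the GC content and length trend and -0.02 without mitochondrial genes, and that of the actin linkers, 0.20, was -0.01 with the most abundant transcript. Over all genes, 1.5-fold calls were 1085 higher and 984 lower, and 866 and 1187 without mitochondrial genes in the scaling; they were 453 and 391 with a pseudocount of 5 and 1529 and 1548 from the most abundant transcript. ZYX turned to -0.06 with that scaling and to -0.21 without the GC content and length trend, and TES to -0.08 in its most abundant transcript. Depth limits the rare transcripts: the counting interval of TGFB1I1-201 ran from -0.28 to 2.60.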
